A study of Rattus norvegicus with 18 samples.

Results

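The soleus, a postural muscle of the lower hindlimb, was compared between the ligated right limb and the unligated left limb of the same rat, 24 hours after the femoral artery of the right limb had been tied and cut out. All 9 male rats of the study were pooled, so that all 18 arrays entered the comparison, each rat giving 1 array per limb. The arrays fall into 4 left and 4 right muscles of sham-operated rats (rats 11, 13, 15 and 17) and 5 left and 5 right muscles of rats that had lost 5/6 of their kidney mass (SNX, rats 12, 18, 20, 37 and 49), all with the artery ligated 8 weeks after the kidney or sham operation. The question is how muscle mRNA differs between the limbs a day after ligation, whatever the state of the kidneys. Because the right limb was always the ligated one, lost flow cannot be told apart from limb side or other effects of the operation on that limb. The unligated limb belonged to the same animal and had its share of any bodily response, so a change common to both limbs cannot appear here. The source labels call both limbs of the sham rats nonischemic and both limbs of the SNX rats ischemic, which goes against the design text, where the right limb was ligated in every rat. The groups were therefore taken from the side and the operation. Strain and age are not given in the sources used here, and RNA came from whole muscle.

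Loss of arterial inflow leaves muscle short of oxygen and fuel, and stretch, injury and inflammatory signals act on it at the same time. Within hours, immediate early transcription factors are made without the need for new protein, followed by chemokines that draw monocytes, by stress genes that guard against metals, oxidants and misfolded proteins, and by angiogenic factors that guide vessel growth. The soleus relies on mitochondria, which burn fatty acids, glucose and amino acids.

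Values are log2 signals of 31042 probe sets. The right minus left difference was tested with limma with the rat as a block, and a probe set is called where its p, adjusted over all probe sets by the Benjamini-Hochberg method, is under 0.05. Genes are represented by the probe set with the highest mean, which gave 14217 genes. Levels near the array medians of 3.221 to 3.373 are dim, and a fold change from such a level is uncertain in size. Muscle genes stood near the top of the scale, with Ckm, muscle creatine kinase, at 15.1 ± 0.105 (SD, n = 9) on the left and 15.0 ± 0.102 on the right, and slow myosin Myh7 at 14.8 ± 0.658 and 14.9 ± 0.894. The fast myosins Myh2, at 14.9 ± 0.339 and 14.9 ± 0.337, and Myh4, at 15.4 ± 0.313 and 15.3 ± 0.264, were as bright. The T cell gene Cd3e was at 3.15 ± 0.104 and 3.09 ± 0.092. The ligated muscles of rat 17 (sham) and rat 49 (SNX) were least like the rest, since their arrays correlated with the remaining ones at means of 0.9784 and 0.9803. The counts of several gene lists are therefore also given without these 2 rats. The 3′ minus 5′ difference of the beta-actin control probe sets, a sign of RNA quality, was 1.77 ± 0.203 on the left and 1.80 ± 0.216 on the right.

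Promoter sequences of 3 genes that rose in every rat are shown first, to set their letters beside the values given below. Each runs from 250 bases before to 50 bases after the start site in the RefSeq annotation of GRCr8. Mt2A, a metallothionein that binds zinc and copper, lies at chr19:10838659-10838958 on the minus strand, and capitals mark 5 matches to the metal response core TGCNCNC on either strand. An AP-1 match, TGACTCA, also lies in this window, in lower case, and overlaps a match to the antioxidant core TGACNNNGC. Ccl7, a monocyte chemokine, lies at chr10:67513845-67514144 on the plus strand, and Tfpi2, an inhibitor of plasmin and of tissue factor activity, at chr4:32941227-32941526 on the minus strand. In both, capitals mark 1 AP-1 match, TGANTCA, and 1 match to the NF-kB consensus.
Mt2A: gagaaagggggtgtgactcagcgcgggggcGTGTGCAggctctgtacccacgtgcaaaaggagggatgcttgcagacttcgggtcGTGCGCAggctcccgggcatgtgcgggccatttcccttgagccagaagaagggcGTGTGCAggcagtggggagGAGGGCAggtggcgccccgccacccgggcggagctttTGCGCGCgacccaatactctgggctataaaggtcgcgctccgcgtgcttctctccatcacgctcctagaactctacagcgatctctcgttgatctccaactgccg
Ccl7: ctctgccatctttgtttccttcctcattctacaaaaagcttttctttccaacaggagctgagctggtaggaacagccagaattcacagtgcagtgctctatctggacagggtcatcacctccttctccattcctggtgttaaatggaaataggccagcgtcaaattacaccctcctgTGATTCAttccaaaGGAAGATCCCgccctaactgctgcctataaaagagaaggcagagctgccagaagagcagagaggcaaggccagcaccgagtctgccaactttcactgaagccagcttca
Tfpi2: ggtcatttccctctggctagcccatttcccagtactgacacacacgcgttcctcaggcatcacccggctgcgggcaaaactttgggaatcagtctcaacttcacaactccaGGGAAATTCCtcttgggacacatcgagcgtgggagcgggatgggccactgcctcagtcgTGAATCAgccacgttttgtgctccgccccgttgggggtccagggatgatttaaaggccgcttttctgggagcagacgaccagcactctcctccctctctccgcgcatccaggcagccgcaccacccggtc
A window was found for 11733 of the 14217 genes, of which 61.3% held the metal response core, 6.02% the AP-1 motif and 10.3% the NF-kB motif on either strand. Among the genes called higher on the right, 399 of 494 had a window, and 65.7%, 7.02% and 12.5% of these held the 3 motifs. The hypoxia response core ACGTG stood in 31.8% of the windows of genes called higher, in 22.7% of the 330 windows of genes called lower and in 25.1% of all. A match is a string of letters and does not show that a factor was bound.

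After ligation the rises were larger than the falls. limma called 1354 of 31042 probe sets, 4.36%, of which 692 (2.23%) were higher and 662 (2.13%) lower on the right. Over genes, 874 of 14217 were called, 6.15%, with 494 (3.47%) higher and 380 (2.67%) lower. The counts of called list members below are to be set against these shares. The risen genes had a median difference of 0.66 on the log2 scale, and 144 of them, 29.1%, rose at least 2-fold and 34 at least 4-fold. The fallen genes had a median of -0.34, and 7 of 380, 1.84%, fell at least 2-fold. The median over all genes was -0.01, with 5797 genes above 0 and 8420 below.

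A small part of the genes changed in 1 direction in all rats. The right limb was higher in 9 of 9 rats for 631 genes (4.44%) and lower in 9 of 9 for 450 (3.17%). Of the called rises 379, and of the called falls 260, were among these. Calling uses the same 9 differences, which favours this overlap. An exact sign-flip permutation test over 9 rats cannot go below a two-sided p of 0.00391, which a gene reaches when all rats share 1 direction. In 40 genes, 0.281%, every right array lay above every left array, and in 14 genes, 0.0985%, every right array lay below every left array. All genes of both sets were called. Of the 147 called genes picked for naming, from which the genes below are drawn, 34 were called in every fit that left out 1 rat. The calls of the others were lost without at least 1 rat, most often without rat 13 (112 genes) or rat 37 (94), and 46 of the 147 were called without rats 17 and 49.

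**Figure D1:**
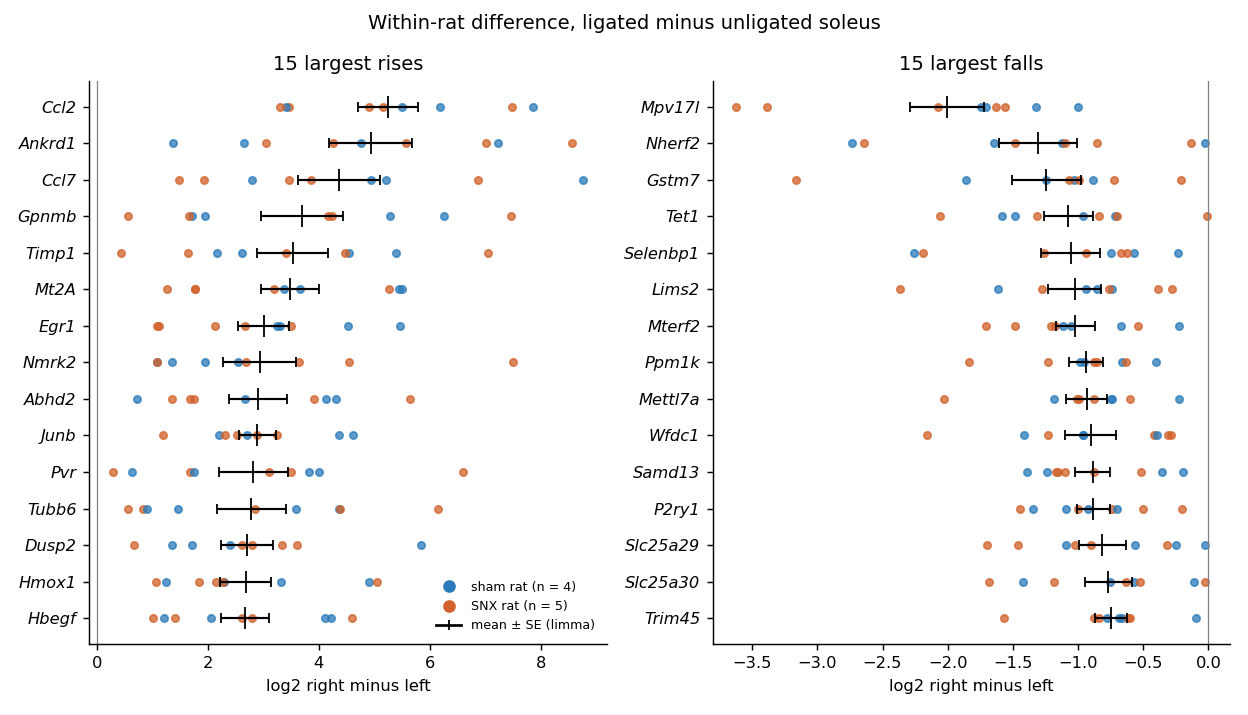
Right minus left log2 difference in each rat for the 15 genes with the largest rise and the 15 with the largest fall among called genes with 1 direction in 9 of 9 rats, blue for sham (n = 4) and orange for SNX (n = 5), with the mean and its limma standard error in black. Ccl2 rose by 5.25 and Mpv17l fell by 2.00, and the x axes of the panels differ in range.

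The monocyte chemokines Ccl2 and Ccl7 were among the largest called rises. Ccl2, which recruits monocytes through the receptor Ccr2, ranged from 4.07 to 6.16 with a median of 4.75 on the left, and from 7.55 to 12.8 with a median of 9.56 on the right. The limbs did not overlap, and Ccl2 rose 38.1-fold, or by 5.25 ± 0.535 log2 units (mean and standard error, limma adjusted p = 0.00669), in 9 of 9 rats. Within rats the rise ran from 3.31 to 7.85, and it was called in all 9 fits that left out 1 rat and without rats 17 and 49, where it was 4.56. Ccl7, a close relative that draws the same cells, had left values of 2.45 to 3.92 and right values of 4.25 to 11.2. It rose by 4.37 ± 0.741 (limma adjusted p = 0.024) from a dim left level, and was called in 6 of the 9 fits that left out 1 rat. These 2 were the called members of 16 CC chemokine and receptor genes, 14 of which were above 0 (median 0.19). Without rats 17 and 49 both were still called, and the median of the list was 0.025. Among 20 CXC and CX3C genes Cxcl9, an interferon-induced lymphocyte chemokine, rose by 1.09 ± 0.171 (limma adjusted p = 0.0199, 9 of 9 rats), and without rats 17 and 49 its adjusted p was 0.0663. It was the only call of the 20, or 5%, which is near the 6.15% of all genes.

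Several immediate early genes rose. Of a list of 23 immediate early transcription factors, made of the AP-1, EGR and NR4A families with others such as Myc and Ier2, 7 rose and none fell. These were Egr1, Junb, Maff, Egr2 and Fos, with Myc and Ier2, and no NR4A gene was called. Called members made up 30.4% of the 23, against 6.15% of all genes. Without rats 17 and 49, 5 were called, and leaving out 1 rat gave between 2 and 8 calls. The median of the 23 was 0.77, against -0.01 over all genes, and 19 were above 0. Junb, a subunit of the AP-1 factor, lay between 4.20 and 5.43 on the left (median 4.67) and between 6.18 and 9.13 on the right (median 7.56). Without overlap of the limbs it rose 7.45-fold, by 2.90 ± 0.336 (limma adjusted p = 0.0105, 9 of 9 rats). Maff, a small Maf factor, rose by 2.64 ± 0.324 (limma adjusted p = 0.013) and was called in all 9 fits without 1 rat, although its highest left value, 7.17, lay above its lowest right value, 6.54. Egr1, a zinc finger factor induced by serum, stretch and low oxygen, was already high on the left, at 6.83 to 10.04, and reached 9.50 to 12.7 on the right (3.01 ± 0.457, limma adjusted p = 0.0185). Fosb, another AP-1 subunit, differed by 1.85 ± 0.465 and missed the threshold (limma adjusted p = 0.0575), with 3.12 in sham and 0.84 in SNX rats.

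Feedback regulators of these signals also changed. Of 22 immediate early feedback regulators 7 rose (Dusp2, Csrnp1, Midn, Gadd45a, Zfp36, Spry2 and Errfi1) and Dusp8 fell. That is 36.4% called, against 6.15% of all genes. Without rats 17 and 49, 5 were called higher and 1 lower, and the list median went from 0.48 to 0.33. Leaving out 1 rat gave between 3 and 9 calls. Midn, which brings nuclear proteins to the proteasome without ubiquitin, ran from 9.36 to 10.7 on the left and from 11.2 to 12.4 on the right with no overlap, a rise of 1.90 ± 0.213 (limma adjusted p = 0.00953). Dusp2, a phosphatase of MAP kinases in the nucleus, was dim on the left at 3.49 to 3.87 and spread from 4.27 to 9.37 on the right (2.71 ± 0.473, limma adjusted p = 0.0262). Dusp8, a phosphatase of stress kinases, fell by 0.62 on the log2 scale (SE 0.088, limma adjusted p = 0.0172), lower in 9 of 9 rats.

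In the IL-6 family, receptor subunits and their transcription factor rose. The shared IL-6 receptor subunit Il6st lay between 9.998 and 10.26 on the left and between 10.28 and 11.06 on the right, and rose without overlap (0.46 ± 0.093, limma adjusted p = 0.0346), while its other probe sets, at 0.39 to 0.43, were not called. Its partner Il6r rose by 0.63 ± 0.097 (limma adjusted p = 0.0188), and Stat3, the transcription factor they activate, by 1.23 ± 0.245 (limma adjusted p = 0.0346). Il11ra1, the IL-11 receptor, fell by 0.32 on the log2 scale (SE 0.075, limma adjusted p = 0.0488). The list of 22 IL-6 family genes held no other call, and without rats 17 and 49 none of the 4 was called. Il6 itself lay between 2.38 and 2.49 on the left and between 2.40 and 6.79 on the right, with a median of 2.62, so that its mean difference of 0.70 ± 0.442 (limma adjusted p = 0.333) came mainly from the 4.35 of rat 17.

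Of 28 genes of the IL-1, TNF and NF-kB pathways 5 rose and none fell, with 23 above 0. That is 17.9% called, against 6.15% of all genes. Tnfrsf12a, the receptor of the cytokine TWEAK, had a broad left range of 7.29 to 11.5 and a narrow right range of 11.3 to 12.6 (2.50 ± 0.506, limma adjusted p = 0.0365). Cd14, a co-receptor for bacterial lipopolysaccharide, rose by 2.39 ± 0.485 with the same adjusted p, and the IL-1 receptor Il1r1 rose by 0.92 ± 0.21 (limma adjusted p = 0.0474) in 8 of 9 rats. None of the 28 was called without rats 17 and 49, when the median of the list fell from 0.36 to 0.17. Of 15 leukocyte adhesion genes Icam1, which binds leukocyte integrins, rose by 1.39 ± 0.304 (limma adjusted p = 0.0426) in 8 of 9 rats.

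**Figure D2:**
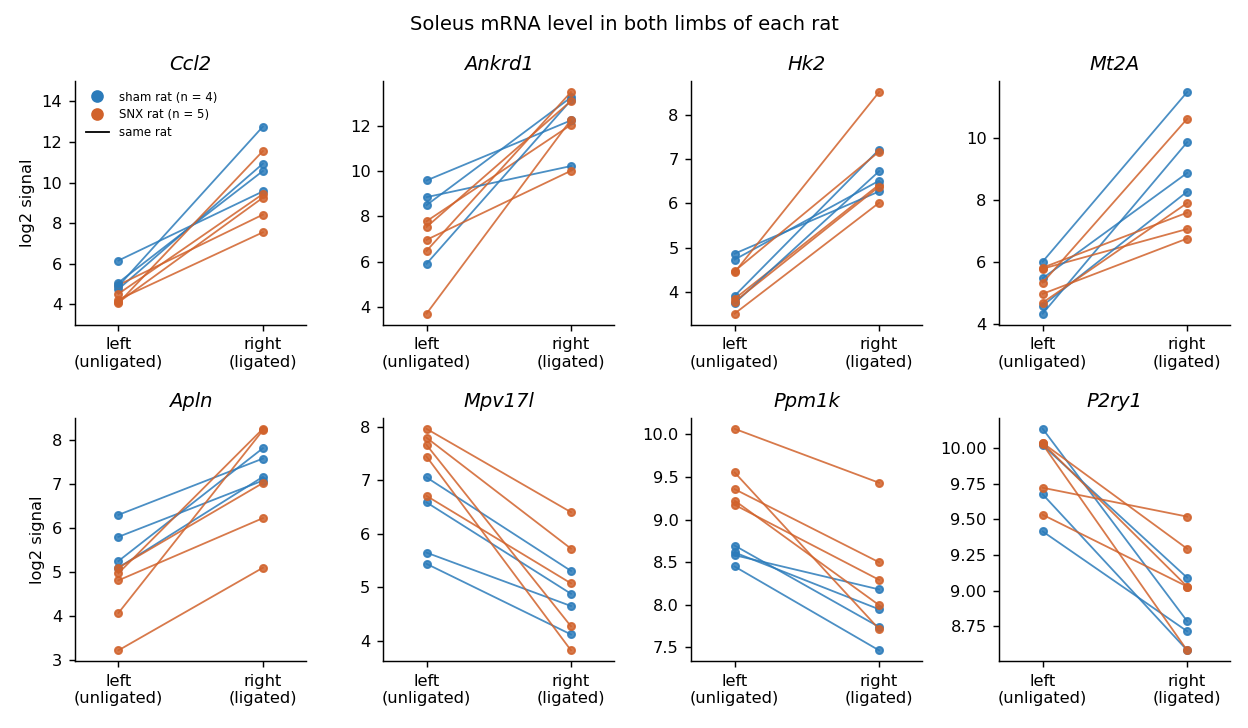
Log2 signal of 8 genes in the left (unligated) and right (ligated) soleus, each line joining the 2 limbs of 1 rat, blue for sham (n = 4) and orange for SNX (n = 5); the y axes differ between panels. Ccl2, Ankrd1, Hk2 and Mt2A do not overlap between the limbs, and all 9 lines rise for Apln and fall for Mpv17l, Ppm1k and P2ry1.

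A few muscle stretch and Z-disc genes rose, 1 of them by a large amount. Ankrd1, a stretch-induced ankyrin repeat protein that sits on titin and in the nucleus, lay between 3.70 and 9.58 on the left (median 7.53) and between 10.01 and 13.48 on the right (median 12.26). It rose 30.6-fold, by 4.94 ± 0.747 (limma adjusted p = 0.0185), with no overlap and with within-rat rises of 1.37 to 8.56. Another Ankrd1 probe set rose by 5.402 ± 0.843 (limma adjusted p = 0.019). Without rats 17 and 49 the rise was 4.32, at an adjusted p of 0.0641.

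Of 26 genes of this list Ankrd1, Xirp1, Flnc and Mustn1 rose and Myot fell, and without rats 17 and 49 only 1 was called. The list mean was above 0 in 6 of 9 rats, from -0.21 in rat 20 to 1.38 in rat 11. The same rats were lowest and highest for the slow fibre genes described next, and a link was not tested. Xirp1, an actin-binding protein of injured Z-discs and intercalated discs, rose by 1.97 ± 0.425 (limma adjusted p = 0.0412). Flnc, the muscle filamin that crosslinks actin at the Z-disc, rose by 1.15 ± 0.249 (limma adjusted p = 0.0421), both higher in 9 of 9 rats. Csrp3, the muscle LIM protein, differed by 1.51 ± 0.392 without passing (limma adjusted p = 0.0616). Myot, the Z-disc protein myotilin, was bright on every array, at 14.9 on the left (14.8 to 14.9) and 14.6 to 14.8 on the right, and fell by 0.18 on the log2 scale (SE 0.028, limma adjusted p = 0.0204) with no overlap. Klhl40, which stabilises thin filament proteins, was chosen after its values were seen. It ran from 10.8 to 11.7 on the left and from 11.8 to 13.6 on the right (1.53 ± 0.215, limma adjusted p = 0.0172).

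No contractile gene was called on its brightest probe set. None of 13 slow fibre genes was called by limma or had an unadjusted p under 0.05, and none of 15 fast fibre genes was called, with 2 under that unadjusted level and 14 below 0. For the fast myosin Myh1 the probe sets disagreed on the call. Its brightest one differed by -0.16 ± 0.06 (limma adjusted p = 0.135), and 3 of its other 4 were called lower, at -0.57, -0.24 and -0.40 (limma adjusted p = 0.041, 0.034 and 0.035). Within rats, however, the slow fibre genes differed widely between the limbs, from a mean difference of -1.81 in rat 20 to 1.54 in rat 11. The mean of the 13 genes ranged from 9.83 to 12.8 over left arrays and from 8.90 to 12.5 over right arrays. Tnnc1, slow troponin C, was between 11.7 and 14.7 on the left and between 10.6 and 14.45 on the right (0.10 ± 0.374, limma adjusted p = 0.87), and Pln, the inhibitor of the slow fibre calcium pump, differed by -0.55 ± 0.424 (limma adjusted p = 0.425).

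Some genes of glucose uptake and trapping rose. Hk2, the insulin- and hypoxia-responsive hexokinase that traps glucose as glucose 6-phosphate, lay between 3.51 and 4.86 on the left (median 3.91) and between 6.01 and 8.51 on the right (median 6.51). Its left level was near the dim range, which leaves the size of a fold change uncertain. The lowest right muscle was more than 1 log2 unit above the highest left one, and Hk2 rose 6.29-fold, by 2.65 ± 0.246 (limma adjusted p = 0.0046, 9 of 9 rats). It was called in all 9 fits without 1 rat and, without rats 17 and 49, rose by 2.41. Of 29 glycolysis and glycogen genes Hk2, Pfkp, Slc2a3 and Ugp2 rose and none fell, while the median of the list was -0.05. Pfkp, the platelet form of phosphofructokinase, rose by 1.06 ± 0.205 (limma adjusted p = 0.0333), and the glucose transporter Slc2a3 rose by 0.68 ± 0.157 (limma adjusted p = 0.0482). Slc2a1, the ubiquitous transporter, was higher on the right in 9 of 9 rats but with a spread of 0.11 to 4.04, so that 1.51 ± 0.446 missed the threshold (limma adjusted p = 0.0845). Tbc1d4, which holds the insulin-responsive transporter inside the cell and was chosen after its values were seen, fell by 0.58 on the log2 scale (SE 0.123, limma adjusted p = 0.0395).

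Of 31 classic hypoxia targets Hmox1, Hk2 and Vegfa rose and none fell, 9.68% against 3.47% higher over all genes. The median of the list was 0.00, and 17 members were above 0. Hif1a, the oxygen-regulated subunit of the hypoxia-inducible factor, rose at the mRNA level by 0.81 ± 0.172 (limma adjusted p = 0.0394) in 8 of 9 rats. Epas1, the related subunit abundant in vessels, did not pass, at 12.6 to 13.3 on the left and 12.6 to 13.3 on the right (0.00 ± 0.077, limma adjusted p = 0.975). The prolyl hydroxylase Egln3, induced by hypoxia in many cells, differed by -0.29 ± 0.084, lower in 8 of 9 rats (limma adjusted p = 0.0835). Adm, the vasodilator adrenomedullin, was higher in 9 of 9 rats, by 1.34 ± 0.348 (limma adjusted p = 0.0618), from a dim left range of 2.92 to 3.71.

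Of 13 NAD synthesis genes 2 rose and 1 fell, 23.1% against 6.15% of all genes, and none was called without rats 17 and 49. Nmrk2, the muscle kinase that makes NAD from nicotinamide riboside, ran from 2.87 to 9.41 on the left and from 9.62 to 12.3 on the right without overlap (2.93 ± 0.652, limma adjusted p = 0.0442). The rise lay between 1.09 and 7.49 within rats, and without rats 17 and 49 it was 3.10 at an adjusted p of 0.118. The left value of 2.87 and the rise of 7.49 were those of rat 18 alone. The next lowest left value was 7.28, in rat 49, and the next largest rise 4.54, in rat 37. Nmrk2 was called in 2 of the 9 fits without 1 rat. Nampt, the enzyme of the nicotinamide salvage route, rose by 0.55 ± 0.116 (limma adjusted p = 0.0398), and Nadsyn1, the last enzyme of the route from nicotinic acid, fell by 0.36 on the log2 scale (SE 0.068, limma adjusted p = 0.031). Nadsyn1 was dim in both limbs, at means of 3.76 on the left and 3.40 on the right. The other 10 were not called. Prkag2, a regulatory subunit of the energy sensor AMPK chosen after its values were seen, rose by 2.12 ± 0.347 (limma adjusted p = 0.0214) without overlap of the limbs.

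Vascular genes changed in both directions. Of 40 angiogenic factors and receptors 6 rose (Apln, Angpt2, Kdr, Pdgfrb, Vegfa and Dll4) and Tek fell, 17.5% against 6.15% of all genes. Of the 40, 3 were called without rats 17 and 49, all higher. Apln, the peptide apelin made by sprouting endothelium, lay between 3.21 and 6.30 on the left and between 5.09 and 8.26 on the right, and rose 4.62-fold, by 2.21 ± 0.308 (limma adjusted p = 0.0172). Another Apln probe set differed by 1.26 ± 0.304 and was not called (limma adjusted p = 0.053). Kdr, the main signalling receptor for VEGF-A, rose from 8.96 to 10.1 on the left to 9.84 to 10.6 on the right (0.86 ± 0.092, limma adjusted p = 0.00745). The ligand Vegfa rose by 0.62 ± 0.095 (limma adjusted p = 0.0188), and another Vegfa probe set differed by 0.61 ± 0.187 without a call (limma adjusted p = 0.092). Each was higher in 9 of 9 rats, and the calls of Apln and Kdr held in every fit without 1 rat and without rats 17 and 49, while that of Vegfa did not (adjusted p = 0.0573).

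In the angiopoietin system the ligand and the receptor changed in opposite directions. Angpt2, which loosens the endothelial lining by opposing Angpt1, rose by 1.26 ± 0.177 (limma adjusted p = 0.0172), and its receptor Tek fell by 0.58 on the log2 scale (SE 0.098, limma adjusted p = 0.0242), each in 9 of 9 rats. Flt1, the decoy-like VEGF receptor, differed by 0.27 ± 0.148 (limma adjusted p = 0.268). In whole muscle, fewer cells of a type and less RNA per cell cannot be told apart. Of 20 endothelial markers Kdr and Pecam1 rose and Tek fell, with a median of 0.05, and Pecam1, the junction protein of endothelium, rose by 0.33 ± 0.052 (limma adjusted p = 0.0204). Among 14 pericyte and smooth muscle markers Pdgfrb, Kcnj8 and Mcam rose and Rgs5 fell. Pdgfrb, the PDGF receptor that holds pericytes to vessels, rose by 0.69 ± 0.104 (limma adjusted p = 0.0185). Rgs5, a pericyte brake on G protein signals, fell by 0.62 on the log2 scale (SE 0.099, limma adjusted p = 0.0204), lower in 9 of 9 rats. Gja1, the gap junction protein connexin 43, chosen after its values were seen, ran from 8.76 to 10.1 on the left and from 10.5 to 12.4 on the right (1.67 ± 0.15, limma adjusted p = 0.0046).

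**Figure D3:**
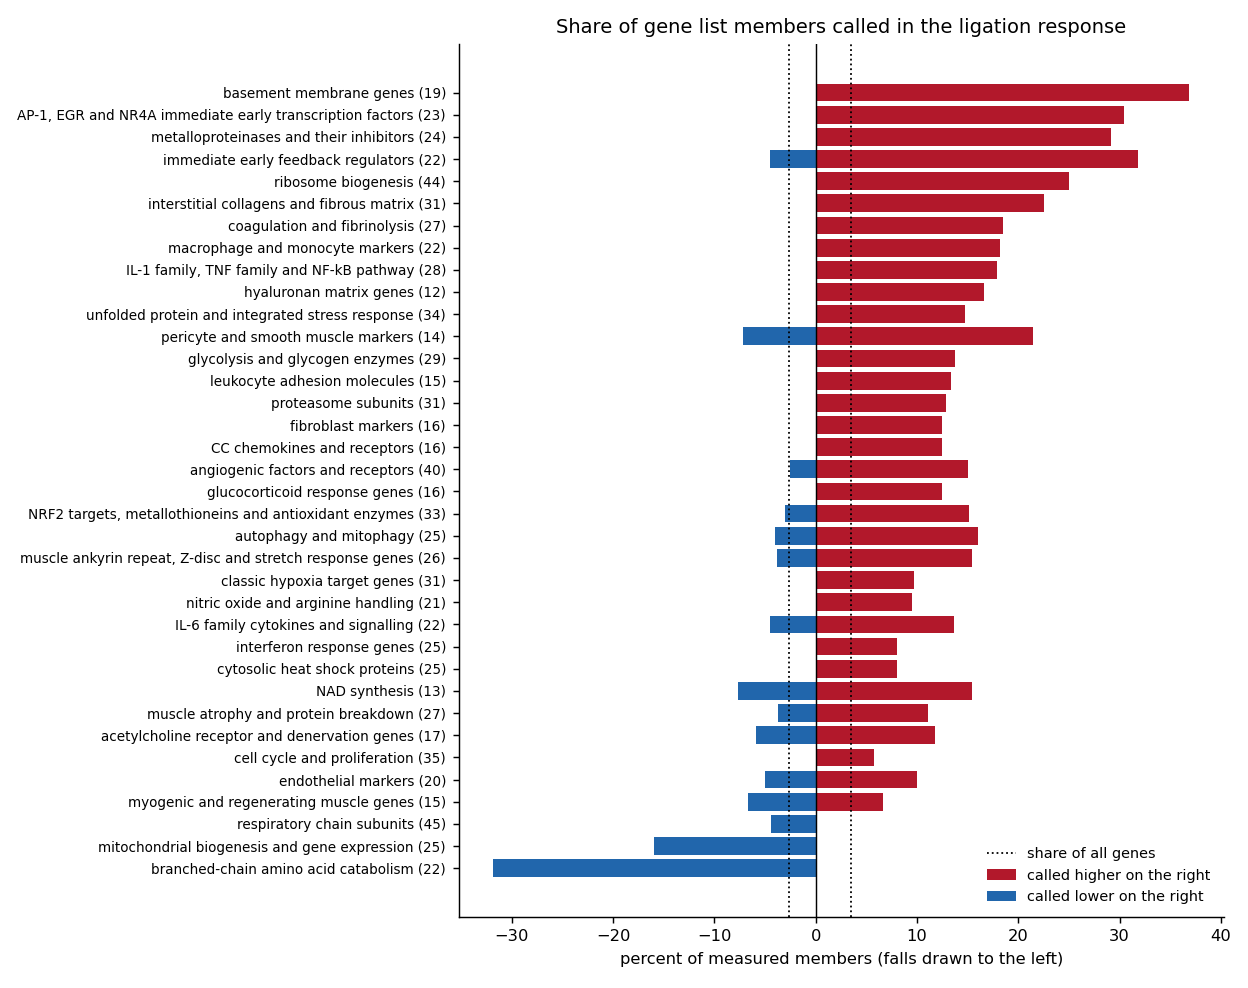
Share of the measured members of gene lists called higher (red, drawn to the right) or lower (blue, drawn to the left) in the ligated limb, with list sizes in parentheses; only lists with at least 2 called members are shown, and dotted lines mark the shares over all genes, 3.47% and 2.67%. Branched-chain amino acid catabolism has the longest blue bar, with 7 of 22 members lower.

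Some stress protection genes rose. The metallothionein Mt2A ran from 4.35 to 6.02 on the left (median 5.34) and from 6.76 to 11.5 on the right (median 8.27), a rise of 3.48 ± 0.522, 11.1-fold (limma adjusted p = 0.0184). Its mean rise was 4.50 in sham and 2.66 in SNX rats, a difference that was not called (limma adjusted p = 0.977). Hmox1, which breaks down heme, rose by 2.68 ± 0.458 (limma adjusted p = 0.0242), and Srxn1, which repairs oxidised peroxiredoxins, by 1.72 ± 0.391 (limma adjusted p = 0.047). With Gclc and Slc39a14 these were the 5 that rose among 33 NRF2 targets, metallothioneins and antioxidant genes, and the mitochondrial peroxidase Prdx3 fell by 0.18 on the log2 scale (SE 0.04, limma adjusted p = 0.0455). Only 1 of the 33 was called without rats 17 and 49, and the median went from 0.06 to 0.00.

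Some genes of the unfolded protein, integrated stress and heat shock responses rose as well. Ddit3, the stress transcription factor CHOP, ran from 7.97 to 9.69 on the left and from 9.77 to 11.2 on the right without overlap (1.54 ± 0.167, limma adjusted p = 0.00776). It was called in all 9 fits without 1 rat and without rats 17 and 49. Sesn2, a stress-induced inhibitor of mTORC1, rose by 1.36 ± 0.271 (limma adjusted p = 0.0345) in 8 of 9 rats, and Nupr1, Dnajb9 and Atf4 also rose among 34 genes of the unfolded protein and integrated stress response, 26 of them above 0. Ddit3 was the only one of the 34 called without rats 17 and 49. Of 25 cytosolic heat shock genes Hspa1a, the inducible HSP70, rose by 1.60 ± 0.352 (limma adjusted p = 0.0428) and its partner Dnajb1 by 1.37 ± 0.247 (limma adjusted p = 0.0284). That is 8% called, near the 6.15% of all genes, and the median of the list was 0.05. Neither gene was called without rats 17 and 49. Hspb1, the small heat shock protein HSP27, differed by 0.99 ± 0.295 and was not called (limma adjusted p = 0.0862). Atf3, which dampens stress and inflammatory genes, differed by 2.14 ± 0.563 (limma adjusted p = 0.0641), with left values spread from 6.05 to 12.2.

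Coagulation and plasmin genes rose in part. Tfpi2 ran from 3.99 to 5.39 on the left (median 4.54) and from 5.69 to 8.93 on the right (median 6.84), a rise of 2.46 ± 0.274, 5.48-fold, without overlap (limma adjusted p = 0.00937). Fgl2, a prothrombinase of activated macrophages and endothelium, rose by 1.83 ± 0.228 (limma adjusted p = 0.0134), and F2r, the thrombin receptor PAR1, by 1.46 ± 0.207 (limma adjusted p = 0.0172). Each was higher in 9 of 9 rats, in every fit without 1 rat and without rats 17 and 49. With Procr, the endothelial receptor of protein C, and Plat, tissue plasminogen activator, 5 of 27 genes rose and none fell, and 4 rose without rats 17 and 49. Called genes were 18.5% of this list, against 6.15% of all genes.

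Part of the matrix genes rose, by amounts that differed between rats. Of 31 interstitial collagen and fibrous matrix genes 28 were above 0, with a median of 0.58, and 7 rose (Fn1, Postn, Col6a3, Col12a1, Col5a2, Bgn and Col6a2). That is 22.6% called, against 6.15% of all genes. Fn1, fibronectin, rose by 1.54 ± 0.338 (limma adjusted p = 0.043), and Postn, periostin, by 1.16 ± 0.236 (limma adjusted p = 0.0365). The main fibrillar collagens were not called, with Col1a1 at 0.58 ± 0.338 (limma adjusted p = 0.294) and Col3a1 at 0.53 ± 0.129 (limma adjusted p = 0.0533). The mean difference over the list was 0.03 in rat 20 and 1.71 in rat 49. Without rats 17 and 49 its median was 0.59 but only 1 member was called, and leaving out 1 rat gave between 0 and 11 calls.

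Basement membrane and matrix enzyme genes rose in part. Of 19 basement membrane genes 7 rose, among them Col4a1, the main network collagen, by 1.07 ± 0.213 (limma adjusted p = 0.0345), and its partner Col4a2 by 0.86 ± 0.15 (limma adjusted p = 0.0269). The calls make up 36.8% of the list, against 6.15% of all genes. Of the 19, 2 were called without rats 17 and 49, and leaving out 1 rat gave between 0 and 8 calls. Of 24 metalloproteinases and inhibitors 7 rose (29.2%) and none fell, with a median of 0.26. Only 1 of the 24 was called without rats 17 and 49, when the median was 0.04, and leaving out 1 rat gave between 1 and 6 calls. Timp1, an inhibitor of metalloproteinases, ran from 4.68 to 7.71 on the left and from 6.25 to 11.7 on the right (3.53 ± 0.644, limma adjusted p = 0.0288), and its rise was 0.44 in the least and 7.05 in the most responsive rat. Adamts9, a protease that cleaves versican, rose by 1.90 ± 0.27 (limma adjusted p = 0.0172) and was called in all 9 fits without 1 rat. Tnfaip6, which remodels hyaluronan, rose by 1.82 ± 0.425 (limma adjusted p = 0.0489), by 2.76 in sham and 1.07 in SNX rats.

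Macrophage markers were higher on the right but very unevenly. All 22 measured markers had a mean above 0, with a median of 1.49, and 4 were called: Gpnmb, Cd14, Fcgr2b and Aif1. Gpnmb, a glycoprotein of lipid-laden and repairing macrophages, ran from 5.07 to 8.44 on the left and from 8.43 to 13.5 on the right (3.70 ± 0.744, limma adjusted p = 0.0355). Fcgr2b, the inhibitory IgG receptor, rose by 2.17 ± 0.329 (limma adjusted p = 0.0185) and was called in every fit without 1 rat. Spp1, osteopontin, spread from 6.15 to 14.1 on the right and from 2.46 to 7.82 on the left, so that a mean difference of 4.50 ± 1.13 was not called (limma adjusted p = 0.0578). Cd68, a lysosomal protein that marks macrophages, was dim on the left at 2.14 to 2.97 and had a right median of 3.27 with a highest value of 7.91 (limma adjusted p = 0.201).

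By rat, the mean macrophage difference was 3.72 in rat 49, 3.24 in rat 17, 1.74 in rat 37 and 1.73 in rat 18, between 0.75 and 1.12 in rats 11, 12, 13 and 15, and 0.04 in rat 20. Over arrays the mean marker level ran from 4.89 to 6.44 on the left and from 5.46 to 9.40 on the right. Without rats 17 and 49 the median was 0.96 and Fcgr2b was the only marker called. In rats 17 and 49 the 16 CC chemokine and receptor genes also had their largest mean differences, 1.741 and 1.497, against 0.84 or less in the others. The 31 matrix genes were at 0.99 and 1.71, against 0.03 to 1.16 in the others. The part of macrophage marker level in these changes was not tested.

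Several other marker lists held no call. None of 10 neutrophil, 15 T, NK and B cell, 10 mast cell, 12 Schwann cell, 13 adipocyte and 8 satellite cell markers passed in limma, while 2, 1, 1, 4, 0 and 4 of them had an unadjusted p under 0.05. The neutrophil calprotectin gene S100a9 was at 6.14 ± 1.09 (SD, n = 9) on the left and 6.44 ± 1.47 on the right, and S100a8 at 3.86 ± 0.956 and 4.24 ± 1.44. Il1r2, the decoy IL-1 receptor of neutrophils, differed by 0.88 ± 0.34 (limma adjusted p = 0.148). Of 16 fibroblast markers Mfap5 and Thy1 rose, by 0.69 ± 0.155 (limma adjusted p = 0.0459) and 0.34 ± 0.066 (limma adjusted p = 0.033). Pmp22, a myelin protein also made by other cells, differed by 1.15 ± 0.386 (limma adjusted p = 0.112). Of 8 erythrocyte and platelet markers, 4 above and 4 below 0, the haemoglobin chain Hbb was the only call and rose by 0.51 ± 0.088 (limma adjusted p = 0.0252) in 9 of 9 rats. Of 11 MHC class II presentation genes RT1-Bb rose, by 0.50 ± 0.112 (limma adjusted p = 0.0451) in 8 of 9 rats.

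**Figure D4:**
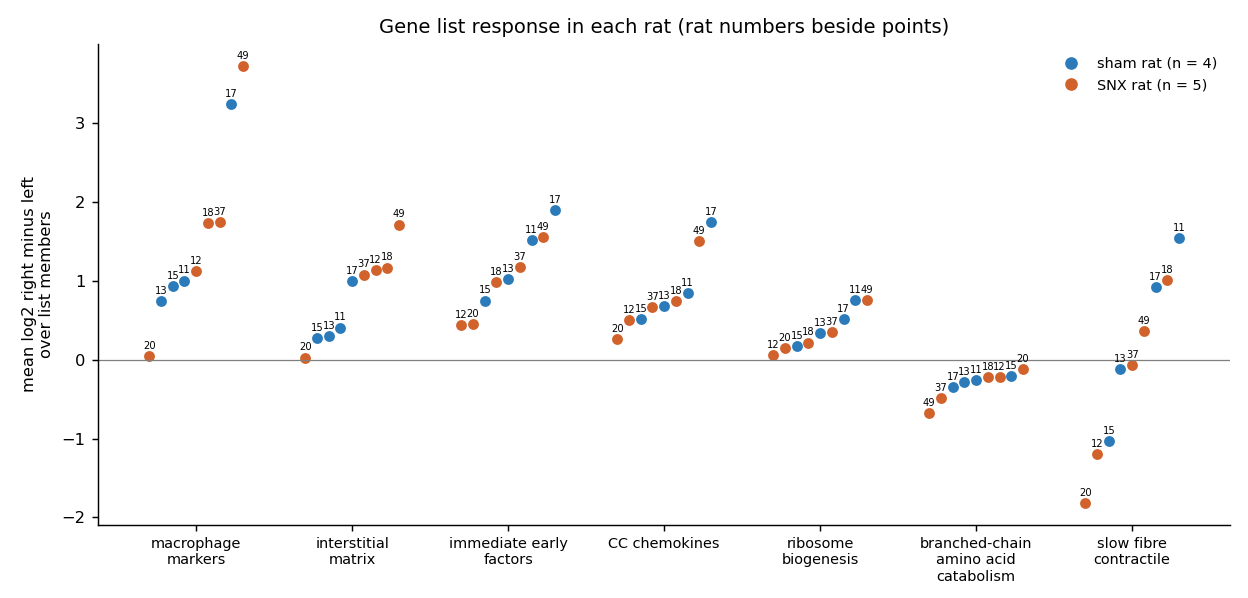
Mean right minus left log2 difference over the measured members of 7 gene lists in each rat, ordered by size within a list and labelled by rat number, blue for sham (n = 4) and orange for SNX (n = 5). Macrophage markers range from 0.04 in rat 20 to 3.72 in rat 49, branched-chain genes are below 0 in all 9 rats, and slow fibre genes lie on both sides of 0.

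Ribosome biogenesis genes were shifted upward. Of 44 ribosome biogenesis genes 43 were above 0 (median 0.33), 11 rose and none fell, 25% called against 6.15% of all genes. Rrp12, an export factor of pre-ribosomes, rose by 1.13 ± 0.223 (limma adjusted p = 0.034), and Bop1, a processing factor of the large subunit, by 0.64 ± 0.083 (limma adjusted p = 0.0155). The mean difference was above 0 in every rat, from 0.05 in rat 12 to 0.76 in rat 49. Without rats 17 and 49 the median was 0.27 but only 1 gene was called.

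Genes of protein breakdown changed in both directions. Of 31 proteasome subunits 4 rose, the highest Psmb2 by 0.15 ± 0.024 (limma adjusted p = 0.0188), with a list median of 0.05. Of 25 autophagy and mitophagy genes 4 rose and 1 fell, while 17 were below 0 and the median was -0.15. Gabarapl1, which decorates autophagosomes, rose by 0.96 ± 0.162 (limma adjusted p = 0.0232), and Ulk1, the kinase that starts autophagy, fell by 0.54 on the log2 scale (SE 0.123, limma adjusted p = 0.0468). Of 27 genes of muscle atrophy and its regulators Inhbb, Igfbp3 and Trim63 rose and Acvr2b fell, with a median of 0.18. Trim63, the muscle ubiquitin ligase MuRF1, rose by 0.46 ± 0.078 (limma adjusted p = 0.0242). In the order given, 12.9%, 20% and 14.8% of these lists were called, against 6.15% of all genes. No proteasome gene, 1 autophagy gene and 1 atrophy gene were called without rats 17 and 49. In the activin and myostatin pathway the ligand subunit Inhbb rose by 1.31 ± 0.268 (limma adjusted p = 0.0366) and the receptor Acvr2b fell by 0.87 on the log2 scale (SE 0.165, limma adjusted p = 0.0316) in 8 of 9 rats. Inhbb was dim on the left, at 2.44 to 3.73, and rose by 2.02 in sham and 0.745 in SNX rats, a difference that was not called (limma adjusted p = 0.977). Igfbp3, which carries insulin-like growth factors, rose by 1.31 ± 0.181 (limma adjusted p = 0.0172) in every fit without 1 rat. Outside these lists Sat1, the enzyme that sends polyamines to breakdown, ran from 7.91 to 8.95 on the left and from 9.21 to 11.5 on the right without overlap (1.69 ± 0.222, limma adjusted p = 0.0159).

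Some mitochondrial genes fell. Mpv17l, a Mpv17-like membrane protein of peroxisomes and mitochondria, lay between 5.44 and 7.96 on the left (median 7.05) and between 3.82 and 6.40 on the right (median 4.88). It fell by 2.00 on the log2 scale (SE 0.284, limma adjusted p = 0.0172), 4.01-fold, in 9 of 9 rats, and was the only called gene that fell over 4-fold. Another, dim Mpv17l probe set differed by -0.445 ± 0.138 and was not called (limma adjusted p = 0.094). Mterf2, a mitochondrial transcription termination family member, fell by 1.02 (SE 0.147, limma adjusted p = 0.0176). With Mterf3, which regulates mitochondrial transcription and ribosomes, and Tfb2m, a mitochondrial transcription initiation factor, 4 of 25 mitochondrial biogenesis genes fell and none rose. Of the 25, 1 was called without rats 17 and 49, and the median went from -0.06 to -0.03. Fastkd5, needed for processing mitochondrial RNA and chosen after its values were seen, fell by 0.37 (SE 0.043, limma adjusted p = 0.0105) without overlap of the limbs.

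Branched-chain amino acid breakdown had the largest share of falls among the 55 gene lists, 31.8% against 2.67% of all genes. Of 22 genes 7 fell, 20 were below 0 and the median was -0.32, with a mean below 0 in all 9 rats, from -0.68 in rat 49 to -0.12 in rat 20. Ppm1k, the phosphatase that switches on the branched-chain ketoacid dehydrogenase, lay between 8.45 and 10.1 on the left (median 9.17) and between 7.47 and 9.43 on the right (median 7.997). It fell by 0.94 on the log2 scale (SE 0.13, limma adjusted p = 0.0172), in every fit without 1 rat and by 0.80 without rats 17 and 49. Other, dim Ppm1k probe sets differed by -0.097 and -0.396 without a call (limma adjusted p = 0.284 and 0.081). Bcat2, the mitochondrial transaminase that takes the first step, fell by 0.66 (SE 0.152, limma adjusted p = 0.0486), and Mccc1, a carboxylase subunit of leucine breakdown, by 0.50 (SE 0.104, limma adjusted p = 0.0383). Ivd, Pcca, Hibch and Hsd17b10 were the other members that fell. Without rats 17 and 49, 4 of the 22 were called lower and the median was -0.21. Klf15, a transcription factor of amino acid breakdown, was lower in 9 of 9 rats by 0.73, which missed the threshold (limma adjusted p = 0.0519).

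Core oxidative enzymes changed little in size. Of 45 respiratory chain subunits 42 were below 0 with a median of -0.08, and 2 fell, Ndufa9 by 0.13 and Ndufa8 by 0.12 on the log2 scale (SE 0.029 and 0.022, limma adjusted p = 0.0482 and 0.0276). None of 22 TCA cycle and pyruvate dehydrogenase genes was called by limma, although 10 had an unadjusted p under 0.05 and the median was -0.11. Ech1, an isomerase of fatty acid oxidation, was the only call among 34 fatty acid genes and fell by 0.30 (SE 0.064, limma adjusted p = 0.0414) in 8 of 9 rats. That is 2.94% of the list, under the 6.15% of all genes.

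Other falls touched signalling genes. P2ry1, a receptor for ADP, lay between 9.42 and 10.1 on the left and between 8.58 and 9.52 on the right. It fell by 0.88 on the log2 scale (SE 0.125, limma adjusted p = 0.0172) in 9 of 9 rats, in every fit without 1 rat and without rats 17 and 49, and was the only call among 25 purine receptor and ectonucleotidase genes. That is 4% of the list, under the 6.15% of all genes. Tet1, which oxidises methylated cytosine, fell by 1.07 (SE 0.19, limma adjusted p = 0.027) without overlap. Msl1, a scaffold of a histone acetyltransferase complex chosen after its values were seen, changed by a small and even amount. It ran from 9.23 to 9.62 on the left and from 8.79 to 9.20 on the right, and fell by 0.39 (SE 0.034, limma adjusted p = 0.0046). Of its other bright probe sets 1 was lower by 0.37 and 1 differed by 0.20 the other way without a call. Nr1d2, a clock repressor, fell by 0.40 (SE 0.089, limma adjusted p = 0.0456) and was the only call among 17 clock genes. At 5.88% called, the clock list was near the share of all genes.

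The response was set side by side for the 2 kinds of rat. The difference between the SNX and the sham response was called for 0 of 31042 probe sets, 0%, in limma, with 921 at an unadjusted p under 0.05. A count of 0 does not show that the responses were alike. All 874 called genes had a mean of 1 sign in sham and SNX rats, which calling them on the mean of both favours. Ccl2 rose by 5.73 in sham and 4.87 in SNX rats, Ankrd1 by 4.001 and 5.687, Hk2 by 2.36 and 2.89, and Egr1 by 4.14 and 2.10. Kdr rose by 0.79 and 0.92, Apln by 1.80 and 2.54, and Vegfa by 0.81 and 0.46. Mpv17l fell by 1.44 in sham and 2.45 in SNX rats, and Ppm1k by 0.75 and 1.09.

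The size of the response differed between individual rats. Averaged over the 874 called genes in the called direction, the difference was 1.11 in rat 49, 0.92 in rat 17, 0.76 in rat 11 and 0.68 in rat 37. It was 0.58 in rat 13, 0.55 in rat 18, 0.49 in rat 15, 0.44 in rat 12 and 0.36 in rat 20. Without rats 17 and 49, 316 probe sets were called, 183 higher and 133 lower, of which 268 were among the 1354. Leaving out rat 20 or rat 12, the least responsive, gave 1695 and 1632 calls, and leaving out rat 13 gave 164.

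**Figure D5:**
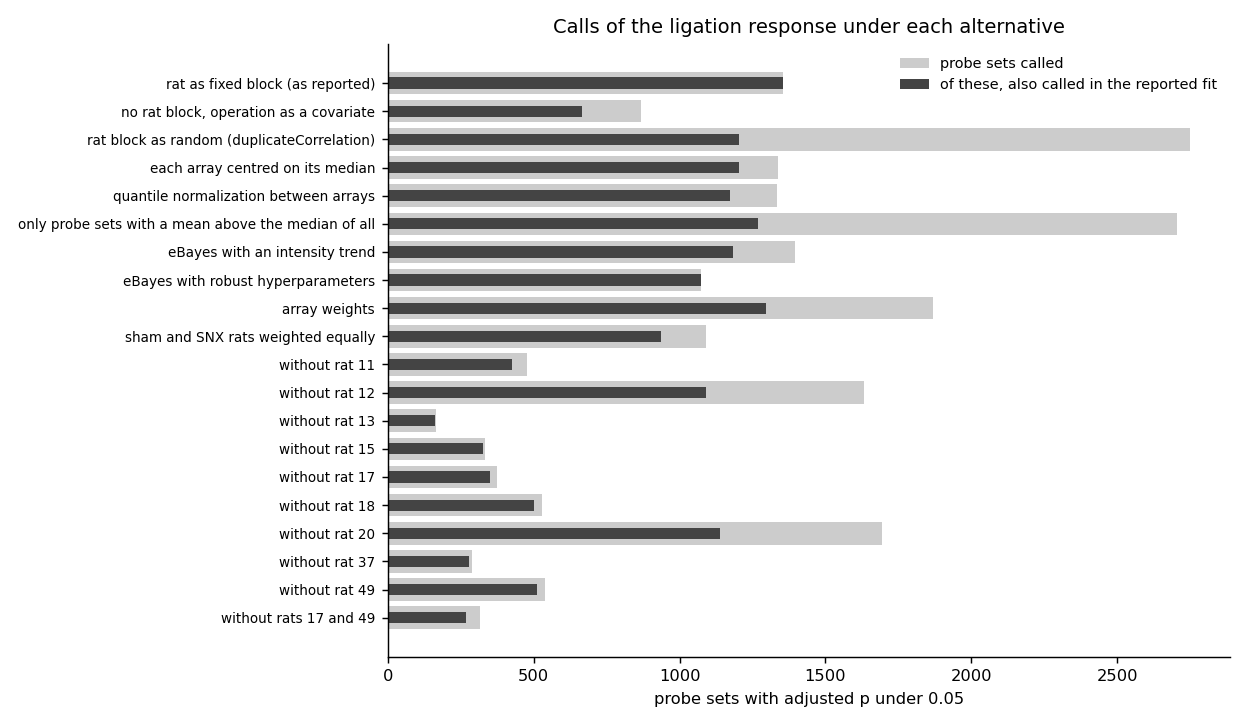
Number of probe sets called under each way of fitting the data (light bars) and how many of these are among the 1354 called in the reported fit (dark bars). The counts run from 164 without rat 13 to 2750 with the rat as a random block.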

How the data were processed

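Total RNA of each soleus (2 µg) was hybridised to Affymetrix arrays. The deposited values are log2 signals of 31099 probe sets, and the submitters' processing notes name RMA, GCRMA and Partek without saying which gave them. No 2 arrays held identical values. After 57 control probe sets were set aside, 20826 probe sets had 1 gene, 436 several and 9780 none in the platform annotation, and 20758 of the former were matched to RefSeq GRCr8 by gene ID. limma 3.58.1 in R 4.3.3 fitted the rat as a fixed block plus side (8 residual degrees of freedom, threshold 0.05, Benjamini-Hochberg over all 31042 probe sets), and a further fit added side by operation. The median standard error was 0.0504. The limbs of a rat share 1 animal. Their deviations from the group means correlated between -0.001 and 0.534. Data of this size were also simulated with independent normal noise, and changes were placed only in probe sets brighter than the median. Of changes of 0.5, 1, 1.5 and 2 log2 units 54%, 82%, 88% and 100% were recovered, with 7 false among 169 calls. These rates do not cover dim probe sets, and far fewer probe sets were changed than were called in the real data.

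Named genes were the 15 largest called rises and falls with 1 direction in 9 of 9 rats, of each of 55 lists up to 3 that rose and 3 that fell (the 2 with the lowest p where none passed), 14 fixed genes, and others chosen after their values were seen: those so described, those of the closing section, and Atf3, Cd68, Col1a1, Col3a1, Csrp3, Fosb, Hspb1, Il6, Klf15, Slc2a1 and Spp1. Members and lists were chosen with earlier results of these data known. Lists were described by counts and medians, with no set test. Alternatives changed the block, the scaling, a filter on dim probe sets, the variance model, array weights, the weight of the operations, the probe set per gene and the rats included. Tables and figures were made in Python 3.11.15 with pandas 2.3.3 and matplotlib 3.10.9.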

Additional observations from a re-analysis of the deposited data

Results flagged for a closer look

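Within-rat differences were checked for rats far from the other 8 with Dixon's gap test, which chance alone passes in about 1 in 20 groups. Of 182 named genes 7 had such a rat, which is no more than that rate gives. Rat 49 (SNX) stood apart for Col4a1 at 2.60, for Mccc1 at -1.26 and for the mast cell tryptase Tpsab1 at 2.13. All 9 rats shared 1 direction for Col4a1 and Mccc1, and the mean of Tpsab1 was not called. Sham rat 17 stood apart for Il6 at 4.35, sham rat 13 for the endothelial junction gene Pecam1 at 0.69 and sham rat 11 for the mitochondrial ribosomal gene Mrpl14 at 0.13, where the other 8 rats were below 0. Ncoa7, an oxidation resistance gene with limbs that did not overlap, had its smallest rise of 0.40 in SNX rat 18.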

How the results depend on the processing

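Among 182 named genes, the 147 called ones kept their direction in all 21 alternatives. The number called moved more. Against 1354 probe sets, 867 were called with no rat block (529 higher, 338 lower, 667 shared), 2750 with the rat as a random block and 2703 when only probe sets brighter than the median were tested, a filter that also leaves fewer tests. Against 874 genes, 1421 were called with adjustment over genes alone and 1339 with the mean of all probe sets of a gene. Leaving out 1 rat gave 164 to 1695 calls, and leaving out rats 17 and 49 gave 316. Beyond the smaller number of rats, the cause was not tested. Of the 147 called genes, 112 were lost without rat 13, 94 without rat 37, 86 without rat 15 or rat 17, 79 without rat 11, 67 without rat 18, 66 without rat 49, 20 without rat 12 and 15 without rat 20, and 34 held in all 9 such fits. Genes with 1 direction in every rat numbered 1081, and between 1128 and 1861 after leaving out 1 rat (1738 without rat 20). Some genes near 0 changed sign. Epas1 was 0.017 with array weights, 0.081 without rats 17 and 49 and between -0.057 and 0.048 after leaving out 1 rat. Tnnc1 was -0.028 with array weights, -0.187 without rats 17 and 49 and between -0.072 and 0.377 after leaving out 1 rat. Pln was 0.043 without rats 17 and 49. For 19 of 55 lists, with medians between -0.10 and 0.07, the sign of the median changed under some alternative. Precision is limited by 9 pairs of arrays and, for dim probe sets, by low signal.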

Other observations

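Gene families defined by symbol were counted after the values had been seen, so the counts are descriptions. Mitochondrial and cytosolic translation gene families had medians of opposite sign. Of 73 mitochondrial ribosomal protein genes 11 fell and none rose, 58 were below 0 and the median was -0.14, against 1 risen and none fallen of 47 cytosolic ribosomal protein genes with a median of 0.06. Of 19 cytosolic aminoacyl-tRNA synthetases, which load amino acids onto transfer RNA, Tars1, Nars1 and Yars1 rose by 0.35, 0.50 and 0.53 and Farsb fell, while of 13 mitochondrial ones Tars2 and Cars2 fell by 0.28 and 0.25. Cars2 was dim in both limbs, at means of 3.77 on the left and 3.52 on the right. Tars1, for threonine in the cytosol, rose in 9 of 9 rats without overlap of the limbs (limma adjusted p = 0.045), and its mitochondrial counterpart Tars2 was lower in 8 of 9 (limma adjusted p = 0.0466). The medians of these 4 families kept their sign in all 21 alternatives, and without rats 17 and 49, 2 mitochondrial ribosomal genes and none of the others were called. In the order given, 15.1%, 2.13%, 21.1% and 15.4% of the 4 families were called, against 6.15% of all genes. The difference between the families was not tested.

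Other families gave small sets of calls, to be set against the 6.15% of all genes that were called. Of 4 interferon-induced transmembrane genes Ifitm1, Ifitm2 and Ifitm3, which block virus entry, rose by 1.87, 0.68 and 1.10. Of 25 interferon response genes 2 rose, 8%, which is near the share of all genes. The calcium-binding genes S100a4 and S100a6 rose by 2.30 and 1.40 among 14 S100 genes (14.3% called). Pex19, which brings membrane proteins to peroxisomes, fell by 0.76 on the log2 scale with Pex7 and Pex3 among 14 peroxins (21.4% called). Of 219 zinc finger genes with Zfp symbols 11 fell and the mRNA decay factor Zfp36 rose. These calls make up 5.48% of the family, which is near the share of all genes. All but Zfp36 were falls, while 2.67% of all genes were called lower. Of the 219, 166 were below 0, with a median of -0.07.

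Falls that were small and even had some of the lowest p-values. Abcc1, an exporter of glutathione conjugates, fell by 0.61 on the log2 scale (SE 0.056, limma adjusted p = 0.0046) and Crim1, a transmembrane regulator of BMP signals, by 0.49 (SE 0.053, limma adjusted p = 0.00745), each in 9 of 9 rats and in every fit without 1 rat. Usp28, a deubiquitinase, rose by 0.88 ± 0.124 (limma adjusted p = 0.0172) without overlap of the limbs. Slc20a1, a phosphate importer, rose by 1.86 ± 0.279 (limma adjusted p = 0.0184) and Klf5, a zinc finger factor, by 1.66 ± 0.261 (limma adjusted p = 0.0198), both without overlap.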
